A study of Homo sapiens with 6 samples.

Results

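The 51 genes described here build and run the DNA replication fork. They were taken from a list of symbols covering the MCM2-7 helicase, the origin recognition complex, licensing factors, GINS, helicase activators, the sliding clamp and its loaders, the replicative polymerases and primase, RPA, Okazaki fragment enzymes, fork protection factors and the chromatin factors that work behind the fork. All 51 were measured, among 19775 genes in all, and the value of a gene was the mean over its probe sets that carry a single gene symbol (95 probe sets for the 51 genes). The cells were MCF10A, an established epithelial line from human breast that does not form tumours, with no genetic change or drug added between the groups. They were seeded at 50K, 100K, 200K, 400K, 600K or 800K cells (1K is 1e3 cells) per 35 mm dish, a 16-fold range, and total RNA was taken after 24 h. All dishes had the same medium with horse serum, EGF, hydrocortisone, cholera toxin, insulin and gentamicin. Every density was represented by 1 Affymetrix HG-U133 Plus 2 array and none was repeated, so the standard errors below reflect how far the 6 arrays lie from a fitted line, and their number limits the precision.

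Before a cell copies its DNA, the origin recognition complex, with CDC6 and CDT1, loads the ring-shaped MCM2-7 helicase onto origins in an inactive form, a step called licensing. Kinases, CDC45 and GINS then turn it into the moving helicase, and polymerases, the PCNA clamp, RPA and the enzymes that join Okazaki fragments copy the strands behind it. Many of the genes are transcribed late in G1 and in S phase under E2F factors, and normal epithelial cells leave the cycle when they become crowded. In a bulk sample, a smaller share of cells in S phase and less of an RNA in each cell cannot be told apart.

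The replication genes were lower on the densest arrays. Of the 51, 37 fell with density in limma's test of the slope (adjusted p under 0.05 over all 19775 genes), 0 rose, and 14 did not pass, although their slopes were also negative. Of all genes, 12.4% fell and 8.93% rose by the same rule, and 41.4% had a negative slope. The median slope of the 51 was −0.29 log2 units per doubling of the cells plated, against 0.00 over all genes, where the 5th percentile was −0.19. At 800K, 33 of the 51 stood at least 2-fold below their 50K value, a size reached downward by 2.69% of all genes. The steepest were MCM10, which helps start the helicase, at 5.26-fold lower, and CDC6, the loader of the helicase, at 4.92-fold lower.

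The count of falling genes changed with the arrays in the fit. It was 33 without the 50K array and 39 without either 200K or 400K, but 12 without 100K and 14 without either 600K or 800K. Over all genes 2455 fell with every array. That count was 1691, 2282 and 2106 without 50K, 200K or 400K, and 1665, 1402 and 1362 without 100K, 600K or 800K. Each such fit also has 1 array fewer from which to estimate the spread. The genes that kept the call whichever single array was left out were CDT1, GMNN, GINS3, RFC5, DSCC1, LIG1, CLSPN, TIPIN and UHRF1, 9 in number. A joint F test of the linear and quadratic terms, which lets the response bend, called 46 of the 51, all with a negative slope, against 20.1% of all genes, or 12% counting those with a negative slope. It added 9 of the 14 genes that missed the slope test and left out MCM6, ORC4, RFC1, PRIM2 and RPA3.

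**Figure D1:**
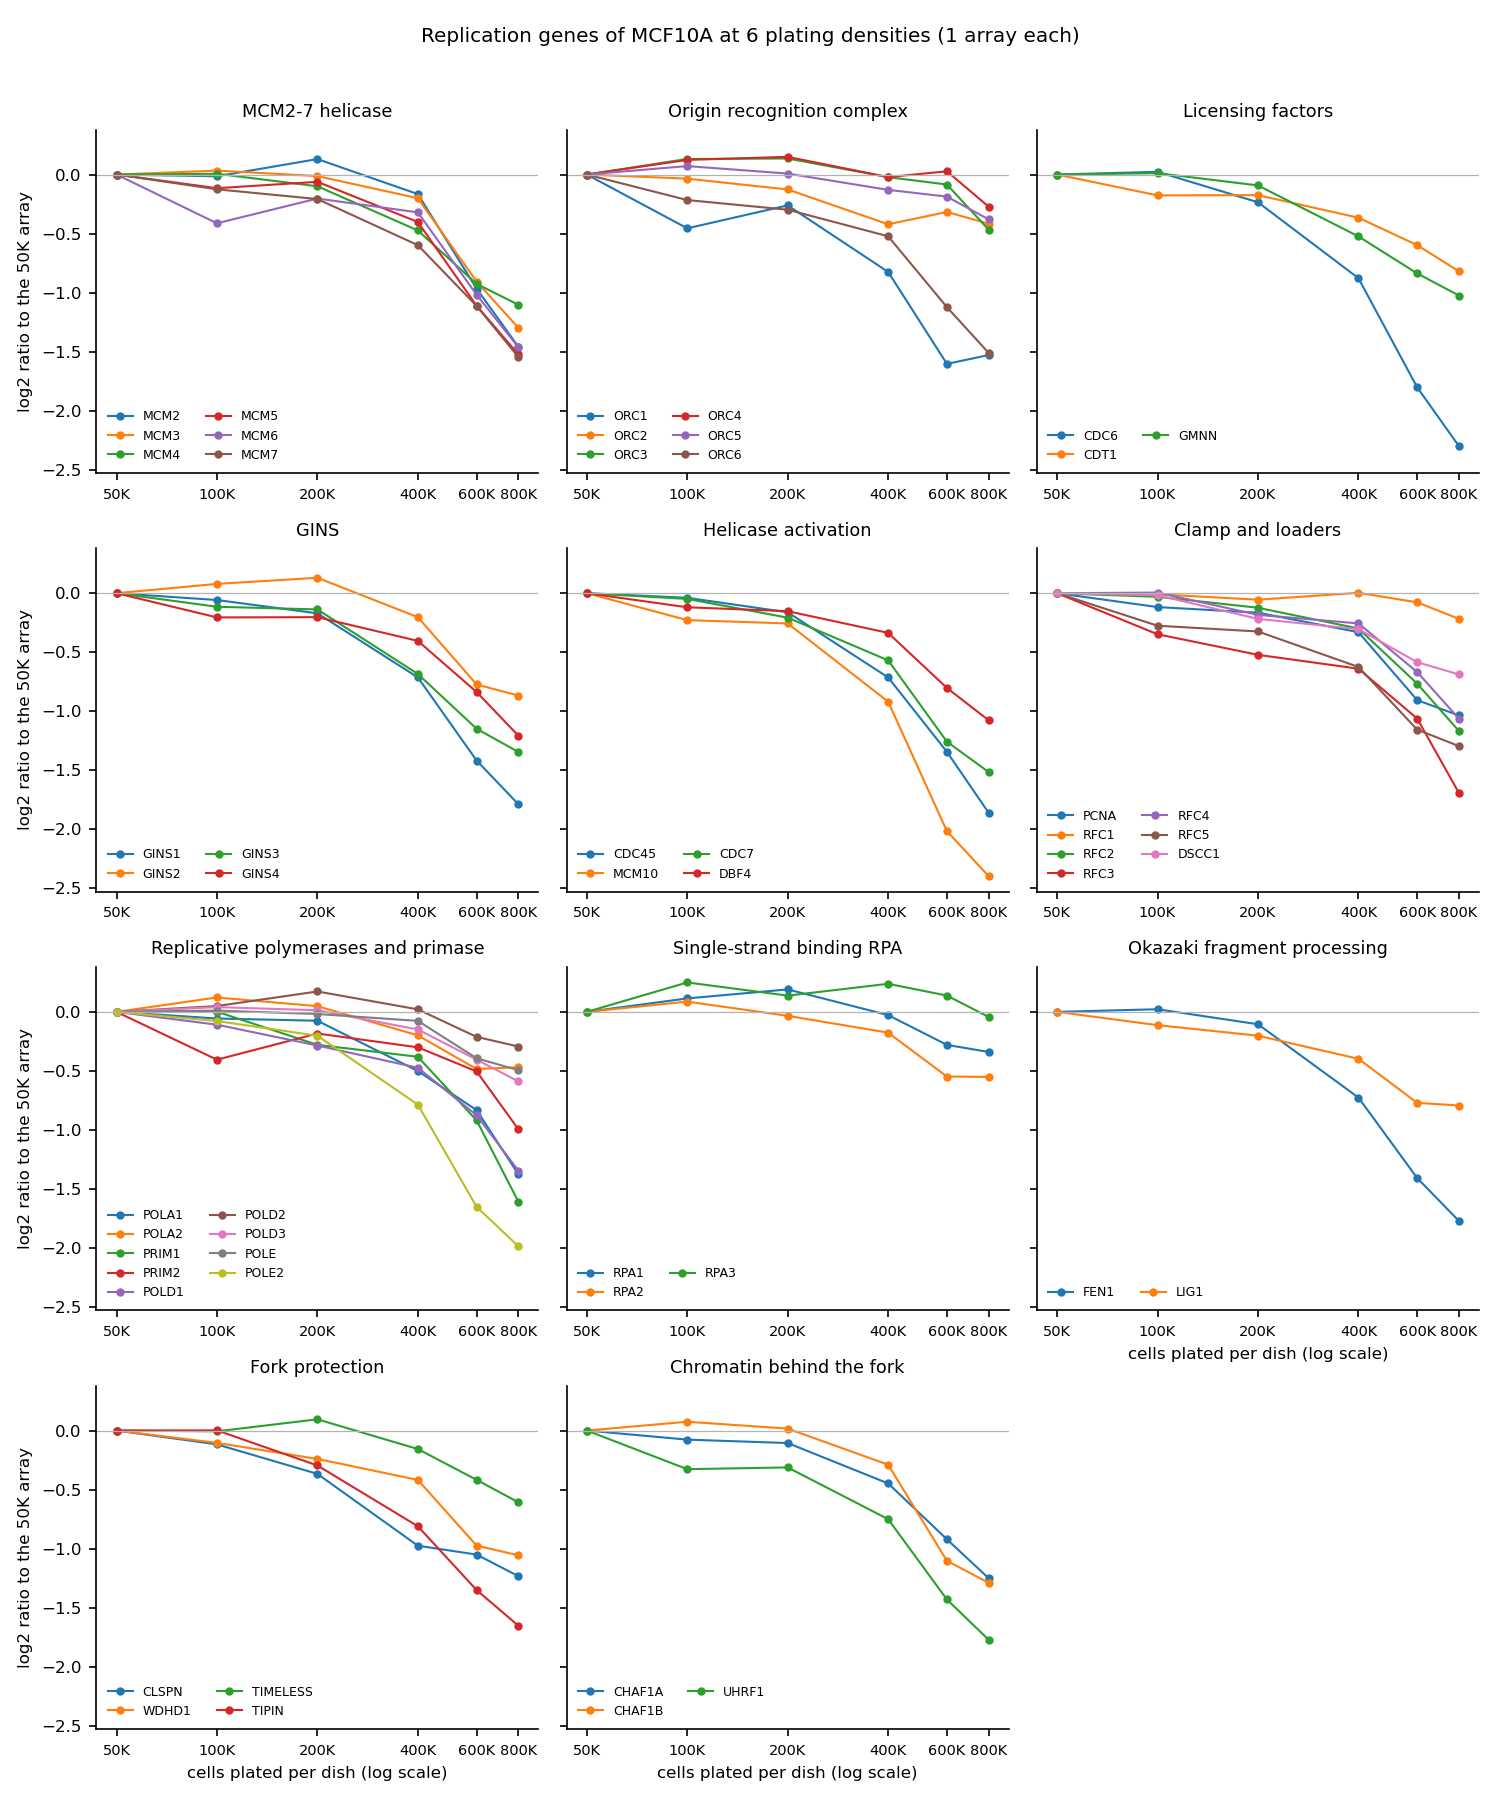
Log2 ratio of each replication gene to the 50K array (vertical axis) against cells plated per dish (horizontal axis, log scale), 1 panel for each role and 1 point for each array. Most lines stay near 0 up to 200K and drop between 200K and 800K; RPA3 and RFC1 stay near 0 throughout.

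The drop lay mostly in the upper part of the density range. From 100K to 800K, in order of density, the median ratio of the 51 genes to the 50K array was 0.976, 0.900, 0.759, 0.534 and 0.434. From 50K to 200K the median change was −0.15 log2 units, and over the next 4-fold step, from 200K to 800K, it was −1.0. All 51 genes had the more negative change in the second range, against 60.8% of all genes. Step by step, 31 of the 51 were lower at 100K than at 50K and 37 lower at 200K than at 100K, then 49 at each of the following 3 steps. Over all genes these shares were 34.8%, 64.3%, 60.9%, 36.5% and 63.4%, so the steps to 200K, 400K and 800K were downward for most genes. The exceptions at the later steps were RFC1 and RPA3 from 200K to 400K, ORC2 and ORC4 from 400K to 600K, and ORC1 and POLA2 from 600K to 800K. In 45 of the 51 the 400K, 600K and 800K values all lay below the other 3, as in 17.9% of all genes, and 20 went down at each of the 5 steps, as in 3.53% of all genes. The 6 that overlapped by their gene means were MCM6, ORC4, RFC1, PRIM2, POLD2 and RPA3. For MCM6 the overlap came from 1 of its 2 probe sets.

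The bend itself did not pass a test. The quadratic term was negative in 51 of 51 genes (61.6% of all genes), yet limma's adjusted p lay between 0.115 and 0.945, and 0 of the 19775 genes passed. At an unadjusted p under 0.05, 44 of the 51 were bent, all downward, against 6.8% of all genes with a downward bend.

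**Figure D2:**
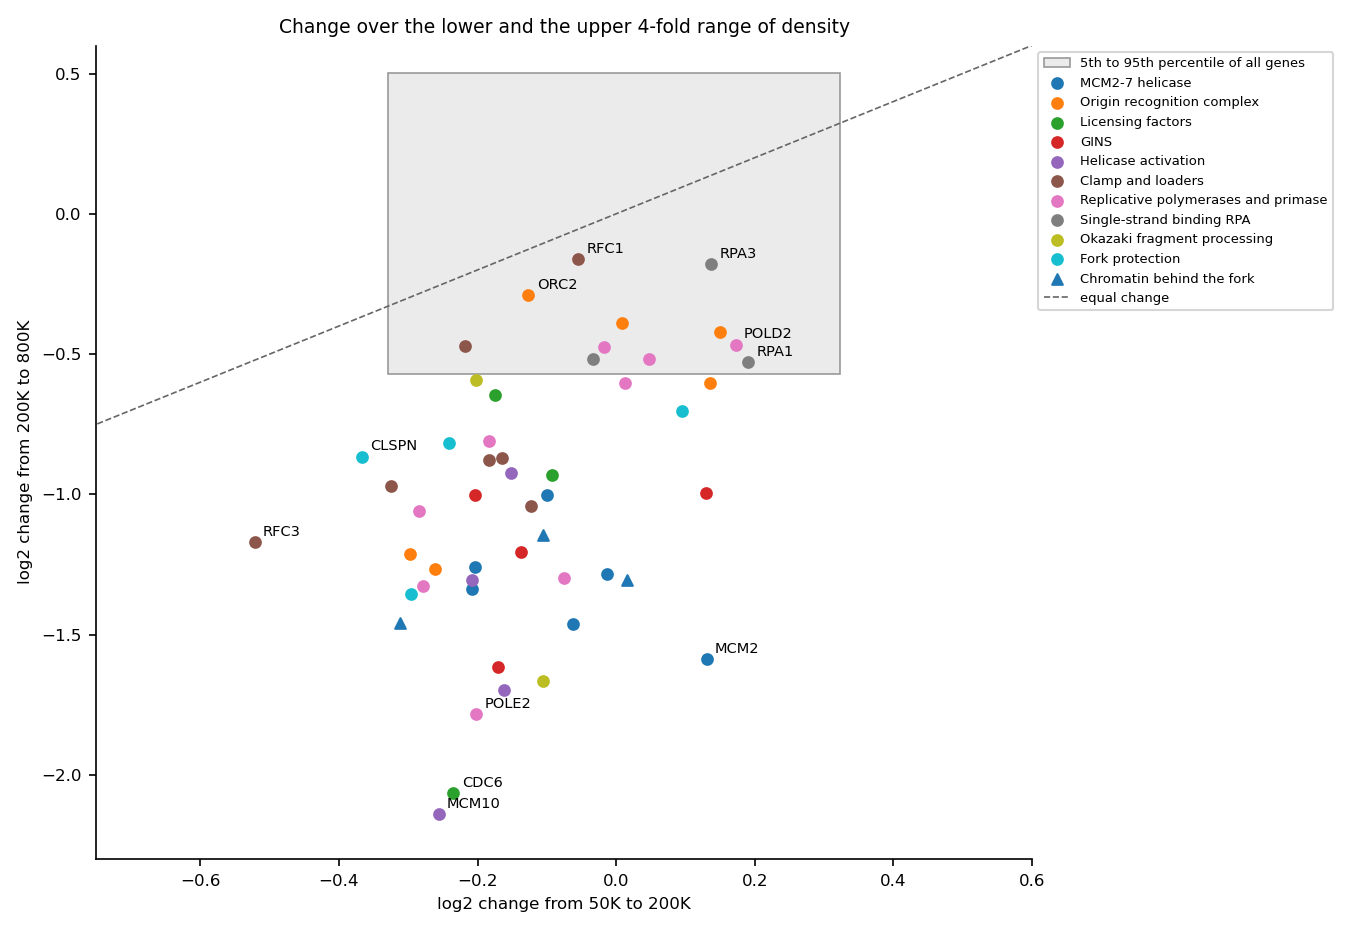
Log2 change from 50K to 200K (horizontal axis) against log2 change from 200K to 800K (vertical axis) for each of the 51 genes, coloured by role. The grey box spans the 5th to 95th percentile of all genes on each axis (−0.33 to 0.32 and −0.57 to 0.50), the dashed line marks equal change, and all 51 genes lie below that line.

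Some measures of the arrays moved too. The 3′ over 5′ signal of ACTB, a sign of RNA integrity and labelling, was −0.02, 0.04, 0.17, 0.22 and 0.30 log2 units relative to the 50K array from 100K to 800K, and that of GAPDH stayed between −0.05 and 0.07. The 50K array stood apart for 18S rRNA, whose 3 probe sets lay at −1.02 to −0.44 log2 units on the other arrays, and for the 24 poly-A controls added before labelling, whose median was −0.45 to −0.24 elsewhere. The part of these in the fall of the replication genes was not tested. The 33 calls without the 50K array and the changes from 200K to 800K do not use that array. The ACTB signal, however, also moved from 200K to 800K, from 0.04 to 0.30. Of 8 epithelial markers, CDH1, KRT5 and KRT14 rose and LAMB3 fell. Markers of other cells rose in 1 of 7 for fibroblasts (DCN, slope 0.08), 2 of 5 for endothelium (PECAM1 and KDR) and 1 of 4 for leukocytes (CD14, slope 0.74), and none of them fell. Ratios to the 50K array carry no level, so whether a marker was near 0 cannot be read from them. The part of these markers in the result was not tested.

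The promoters of these genes share letters that the list did not use. RefSeq promoter sequences (GRCh38.p14, 250 bases before to 50 after a start) were found for 44 of the 51 genes, with 57 starts, and not for MCM4, MCM5, GINS4, DSCC1, POLD3, RPA2 and RPA3. An E2F-type motif, searched as TTTGGCGC, TTTCGCGC, TTTCCCGC or TTTGCCGC on both strands, occurred in 22 of the 44 (50%) against 3.99% of the 27305 genes in the promoter table. TTTCCCGC was the commonest form, in 27.3% of the 44 genes against 1.98% of all. A CCAAT box (CCAAT) was in 59.1% against 39.7%, and a GC box (GGGCGG), which can overlap the E2F forms, in 79.5% against 48.3%. The CHR element (TTTGAA), common in promoters of mitotic genes, was in 2.27% against 18.2%, and DBF4 was the gene that had it. A match describes letters and is no shown binding site, and base composition was not matched here. Of the 22 genes with it 16 fell, and of the 22 without it 15 fell. MCM10, the steepest gene, CDC45, FEN1 and ORC1 had none in this window.

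The stretches below show the motif in genes that fell and, in MCM6, in a gene that did not pass. Capitals mark the E2F-type letters on either strand. Each is written 5′ to 3′ on the gene's own strand and ends at or before a listed transcription start. TIPIN, CDC7 and GMNN have 2 listed starts and MCM7 has 3, and each of these genes also has a start without a match. TIPIN lies at chr15:66356700-66356791 on the minus strand, and its overlapping matches make a palindrome. CDC7 lies at chr1:91501004-91501111 on the plus strand with a match in each direction, and MCM7 at chr7:100101398-100101624 on the minus strand with 2 forms. POLA1 lies at chrX:24693741-24693828 on the plus strand, GMNN at chr6:24775293-24775380 on the plus strand, and MCM6 at chr2:135876482-135876635 on the minus strand with 4 overlapping matches in a repeated block.
TIPIN: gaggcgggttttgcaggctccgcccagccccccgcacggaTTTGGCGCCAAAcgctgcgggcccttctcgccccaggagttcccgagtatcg
CDC7: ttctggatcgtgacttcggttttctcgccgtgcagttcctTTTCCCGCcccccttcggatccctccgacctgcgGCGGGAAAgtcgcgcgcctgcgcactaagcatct
MCM7: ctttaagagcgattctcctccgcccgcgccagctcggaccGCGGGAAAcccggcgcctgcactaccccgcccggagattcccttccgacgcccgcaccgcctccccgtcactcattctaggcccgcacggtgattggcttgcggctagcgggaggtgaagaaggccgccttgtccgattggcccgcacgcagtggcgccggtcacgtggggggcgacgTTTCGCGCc
POLA1: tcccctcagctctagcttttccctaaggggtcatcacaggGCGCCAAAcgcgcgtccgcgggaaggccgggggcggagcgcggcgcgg
GMNN: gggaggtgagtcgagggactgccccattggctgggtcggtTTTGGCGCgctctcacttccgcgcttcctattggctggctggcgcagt
MCM6: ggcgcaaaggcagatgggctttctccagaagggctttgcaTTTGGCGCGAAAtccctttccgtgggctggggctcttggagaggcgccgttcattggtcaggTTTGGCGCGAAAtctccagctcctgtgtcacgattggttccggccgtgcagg

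MCM2-7 is the 6-subunit ring that unwinds DNA, and 3 of its 6 genes passed the test: MCM4, MCM5 and MCM7 fell. MCM2, MCM3 and MCM6 missed the threshold in limma's test (adjusted p 0.0817, 0.0537 and 0.0579). From 100K to 800K, MCM7 had ratios to the 50K array of 0.917, 0.866, 0.661, 0.462 and 0.343. Its slope was −0.36 ± 0.07 log2 units per doubling (SE, 6 arrays; limma adjusted p 0.0144), and it went down at every step. MCM5 stood at 0.923, 0.958, 0.757, 0.463 and 0.348 in the same order, with a slope of −0.35 ± 0.09 (adjusted p 0.0345). By the mean of its 5 probe sets MCM4 had the mildest slope, −0.29 ± 0.05 (adjusted p 0.0144), with 1.00, 0.933, 0.720, 0.526 and 0.466. That rank rests on 1 flat probe set (slope 0.00). With the median of probe sets the slope of MCM4 was −0.37 (limma adjusted p 0.0156), steeper than MCM7 and MCM5. In both MCM4 and MCM5 the 3 densest arrays lay below the other 3. MCM2 was near its 50K value up to 200K: its ratios were 0.990, 1.09, 0.891, 0.512 and 0.364, and the joint F test of line and bend gave it an adjusted p of 0.0101. By the mean of its 2 probe sets MCM6, with the motif block printed above, stood at 0.751, 0.869, 0.801, 0.494 and 0.363. Its 100K value thus lay below its 400K value. That order came from 1 probe set, with log2 ratios of −0.78, −0.41 and −0.35 at 100K, 200K and 400K. The other read −0.05, 0.00 and −0.29 there, and its 3 densest arrays lay below the other 3. At 800K all 6 subunits lay between 0.343 and 0.466. Of the 6, 0 passed the slope test without the 100K or the 600K array, 1 without 800K and 5 without 400K.

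The origin recognition complex marks the origins on which the helicase is loaded, and 3 of its 6 genes fell, by unequal amounts. ORC1, the ATPase subunit known to cycle through the cell cycle, had ratios of 0.729, 0.834, 0.565, 0.329 and 0.347 from 100K to 800K and fell with a slope of −0.39 ± 0.07 (adjusted p 0.0148). ORC6, the smallest subunit, was read by 1 probe set, of suffix _x_at. It stood at 0.861, 0.813, 0.696, 0.459 and 0.351 and fell by a slope of −0.34 ± 0.06 (adjusted p 0.0155). These were the deepest falls of the complex, and in both the 3 densest arrays were the lowest. The other 4 subunits ended higher. ORC2 fell with a slope of −0.11 ± 0.02 (adjusted p 0.0152) to 0.749 at 800K. ORC3, ORC4 and ORC5 did not pass (adjusted p 0.217, 0.372 and 0.0553), with 0.724, 0.828 and 0.769 at 800K. ORC4 had the slope nearest to 0, −0.05 ± 0.03, and its ratios of 1.09, 1.11, 0.985, 1.02 and 0.828 left the 800K array as the lowest. ORC5 stood at 1.05, 1.01, 0.914, 0.878 and 0.769, with the 3 densest arrays lowest. Of the 6 genes, 1 passed without the 100K or the 800K array.

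All 3 licensing factors fell, by unequal amounts. CDC6, the ATPase that joins the origin complex to load MCM2-7, stood at 1.02, 0.850, 0.544, 0.287 and 0.203. Its slope was −0.58 ± 0.11 (adjusted p 0.0153), and 400K to 800K lay far below the 3 sparsest arrays. CDT1, its partner in loading, stood at 0.885, 0.886, 0.776, 0.661 and 0.567, with a slope of −0.18 ± 0.03 (adjusted p 0.0114). GMNN encodes geminin, which binds CDT1 and blocks licensing anew in S and G2. It stood at 1.01, 0.938, 0.695, 0.560 and 0.492, with a slope of −0.27 ± 0.05 (adjusted p 0.0113). The loading factor CDT1 and its inhibitor both went down. CDC6 lost its call without the 100K, 600K or 800K array (adjusted p 0.0587, 0.0552 and 0.0531).

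All 4 factors that turn the loaded ring into a working helicase fell, MCM10 and CDC45 the most steeply. MCM10 had ratios of 0.854, 0.837, 0.529, 0.248 and 0.190 and the steepest slope of the 51, −0.59 ± 0.11 (adjusted p 0.0164). CDC45, which stays bound to the moving helicase, stood at 0.973, 0.894, 0.610, 0.394 and 0.276, with a slope of −0.45 ± 0.09 (adjusted p 0.0167). Both went down at every step. CDC7, the kinase that phosphorylates MCM proteins, had a slope of −0.38 ± 0.07 (adjusted p 0.0146) and ended at 0.350. DBF4, the subunit that activates CDC7, was mildest at −0.25 ± 0.05 (adjusted p 0.0217), with 0.921, 0.900, 0.792, 0.573 and 0.475. All 4 passed with every array in the fit, and again without 50K, 200K or 400K, but 0 passed without the 100K or the 600K array and 1 without 800K.

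GINS is the 4-subunit complex that completes the helicase with CDC45. GINS1 stood at 0.961, 0.889, 0.610, 0.375 and 0.290, and fell with a slope of −0.44 ± 0.08 (adjusted p 0.0150). GINS3 stood at 0.924, 0.909, 0.623, 0.451 and 0.394, with a slope of −0.34 ± 0.06 (adjusted p 0.0106). Each of these went down at every step. By the mean of its 4 probe sets GINS4 fell less, −0.26 ± 0.05 (adjusted p 0.0206), with 0.868, 0.869, 0.756, 0.560 and 0.434. Those probe sets had slopes of −0.53, −0.38, −0.14 and 0.00. Only the first passed by itself (limma adjusted p 0.0197), and it is steeper than GINS1. By the mean of its 3 probe sets GINS2 did not pass (slope −0.23 ± 0.07, adjusted p 0.0584). Its ratios of 1.06 and 1.09 at 100K and 200K were above the 50K array, followed by 0.869, 0.585 and 0.549. The early rise came from 1 probe set, with log2 ratios of 0.30 and 0.59 at 100K and 200K. The others read −0.02 and −0.15, and −0.04 and −0.05. Of the 4 genes, 1 passed without the 100K, 600K or 800K array.

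**Figure D3:**
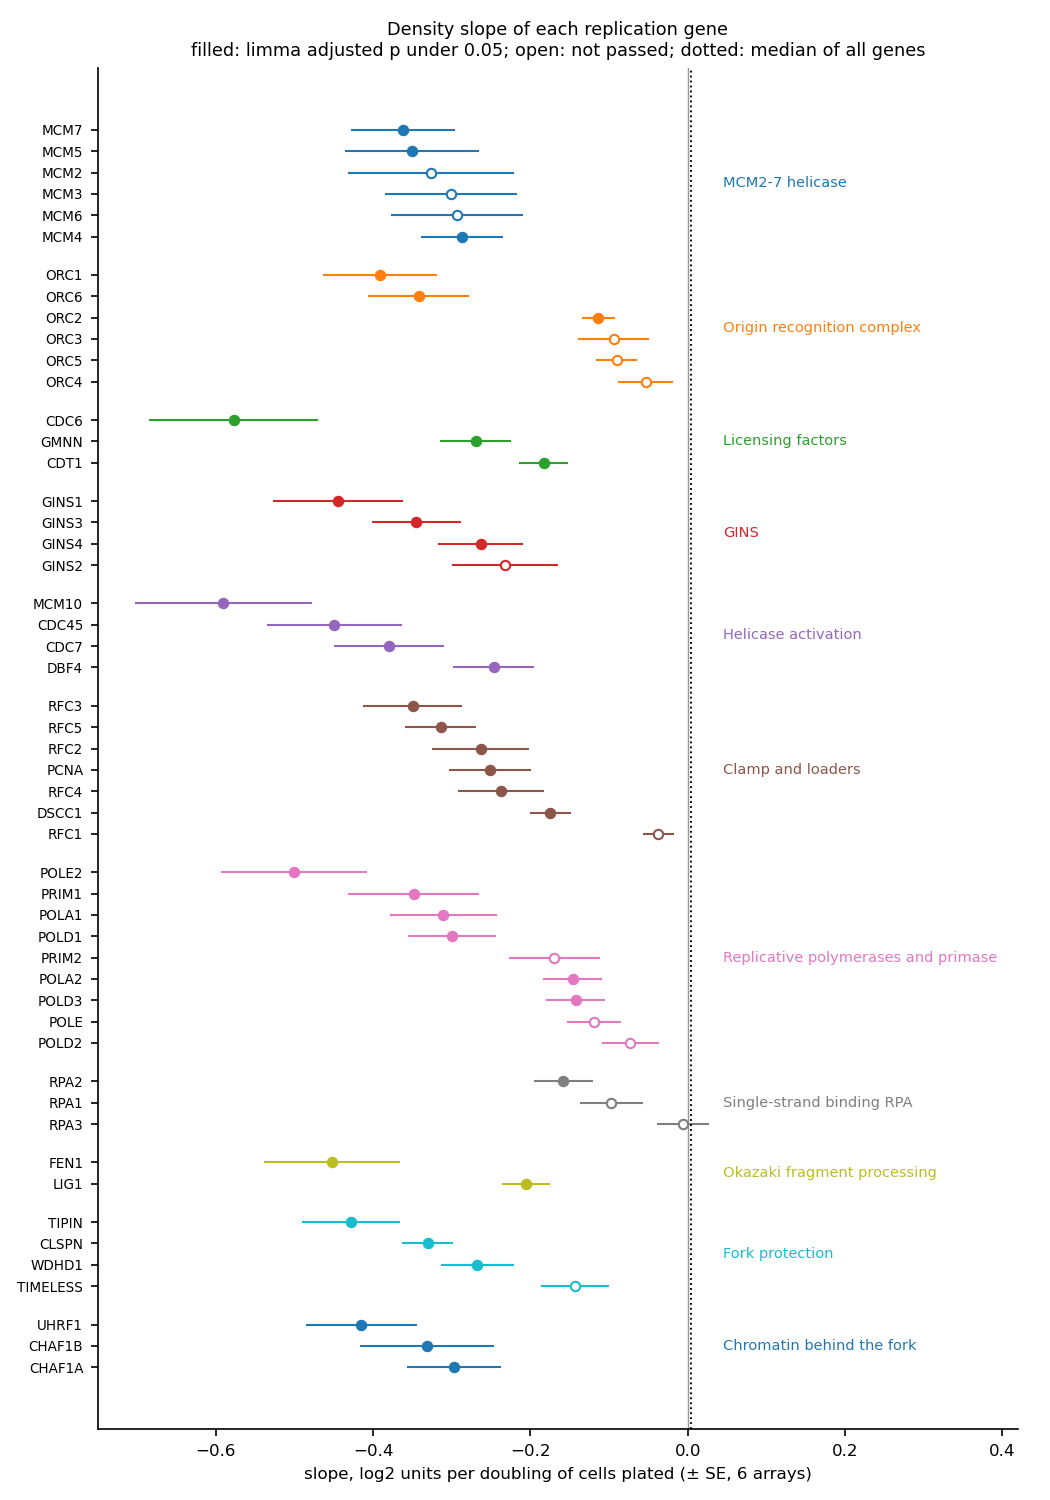
Slope of each replication gene in log2 units per doubling of cells plated (horizontal axis) with its standard error over 6 arrays, grouped by role; filled points passed limma's test at an adjusted p under 0.05, open points did not, and the dotted line is the median of all genes (0.00). CDC6 and MCM10 lie farthest to the left, and RPA3 and RFC1 lie nearest to 0.

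PCNA, the sliding clamp that holds polymerases on DNA, and 5 of the 6 genes of its loaders fell. PCNA ended at 0.488 of its 50K value (slope −0.25 ± 0.05, adjusted p 0.0209). RFC3, a small subunit of the RFC loader, stood at 0.786, 0.697, 0.642, 0.479 and 0.310, with a slope of −0.35 ± 0.06 (adjusted p 0.0139). RFC5, another small subunit, stood at 0.826, 0.799, 0.649, 0.449 and 0.408, with a slope of −0.31 ± 0.05 (adjusted p 0.00711). The means of both were below their 50K value at 100K and went down at each step, but the low value at 100K came from 1 probe set of each. The log2 ratios of the 3 RFC3 probe sets at 100K were 0.02, 0.17 and −1.23, and those of RFC5 −0.15, 0.03 and −0.71. Of the RFC3 probe sets 1 passed alone, and RFC3 lost its call with the median of probe sets in place of the mean (slope −0.27, limma adjusted p 0.0524). RFC2 and RFC4 fell to 0.446 and 0.479. RFC1, the large subunit found in this loader alone, stood at 0.994, 0.963, 1.00, 0.948 and 0.860, with a slope of −0.04 ± 0.02 (adjusted p 0.257). DSCC1 belongs to another loader, built on CTF18 and the same small subunits. It stood at 0.988, 0.860, 0.810, 0.667 and 0.621, with a slope of −0.17 ± 0.03 (adjusted p 0.00765), which was 0.01 on the probe set that remains without suffixes _x_at and _s_at (adjusted p 0.853). Of the 7 genes, 3 passed without the 100K, 600K or 800K array.

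Of the 9 genes for polymerases and primase 6 fell, both catalytic and accessory subunits among them. POLE2, the accessory subunit of the leading strand polymerase epsilon, stood at 0.948, 0.869, 0.580, 0.318 and 0.253 and fell with a slope of −0.50 ± 0.09 (adjusted p 0.0150). The catalytic subunit POLE did not pass (slope −0.12 ± 0.03, adjusted p 0.0574) and ended at 0.710. For polymerase delta, which copies the lagging strand, the catalytic POLD1 fell to 0.394 (slope −0.30 ± 0.06, adjusted p 0.0150). POLD3 stood at 1.03, 1.01, 0.902, 0.755 and 0.665 (slope −0.14 ± 0.04, adjusted p 0.0435), the mean of 1 probe set steeper than POLD1 and 1 with a positive slope. POLD2 stood at 1.03, 1.13, 1.01, 0.864 and 0.816 and did not pass (slope −0.07 ± 0.04, adjusted p 0.240). Polymerase alpha and primase lay the first primers. PRIM1, the primase's catalytic subunit, stood at 1.00, 0.824, 0.768, 0.529 and 0.328, with a slope of −0.35 ± 0.08 (adjusted p 0.0326). POLA1, the catalytic subunit whose promoter is printed above, fell to 0.386 (slope −0.31 ± 0.07, adjusted p 0.0246). POLA2 stood at 1.09, 1.03, 0.871, 0.715 and 0.723 (slope −0.15 ± 0.04, adjusted p 0.0401), so its 800K array was level with 600K. POLA2 lost its call with the median of probe sets (slope −0.11, adjusted p 0.107) and without suffixes _x_at and _s_at (slope −0.04, adjusted p 0.466). PRIM2 ended at 0.502 and did not pass (slope −0.17 ± 0.06, adjusted p 0.0938). Of the 9 genes, 6 passed with all arrays, 0 without 100K and 1 without either 600K or 800K.

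RPA, the trimer that coats single-stranded DNA, had 1 of its 3 genes past the threshold. RPA2 stood at 1.06, 0.977, 0.885, 0.684 and 0.683 and fell with a slope of −0.16 ± 0.04 (adjusted p 0.0316). RPA1 stood at 1.08, 1.14, 0.981, 0.824 and 0.790 and did not pass (slope −0.10 ± 0.04, adjusted p 0.160). RPA3 stood at 1.19, 1.10, 1.18, 1.10 and 0.971, with a slope of −0.01 ± 0.03 (adjusted p 0.946). The 800K array was the only one below 50K for RPA3, and its slope turned to 0.01 when 100K was left out and to 0.03 when 800K was. RPA2 lost its call without the 100K, 600K or 800K array (0 of the 3 genes passed then).

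The Okazaki fragment enzymes fell by different amounts. FEN1, the nuclease that trims the flap, stood at 1.02, 0.930, 0.605, 0.377 and 0.293, with a slope of −0.45 ± 0.09 (adjusted p 0.0165). LIG1, the ligase that seals the nick, stood at 0.925, 0.869, 0.759, 0.586 and 0.577, with a slope of −0.21 ± 0.03 (adjusted p 0.00755). In both the 3 densest arrays were the lowest. FEN1 lost its call without the 100K, 600K or 800K array, leaving 1 of the 2.

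Of the factors that guard the fork, 3 of 4 fell. TIPIN, the partner of TIMELESS in the fork protection complex, stood at 1.00, 0.815, 0.570, 0.392 and 0.318, with a slope of −0.43 ± 0.06 (adjusted p 0.00744). CLSPN encodes claspin, which passes the checkpoint signal to CHK1. By the mean of its 4 probe sets it stood at 0.922, 0.775, 0.509, 0.483 and 0.426, with the smallest adjusted p of the 51 (slope −0.33 ± 0.03, adjusted p 0.00250). By that mean CLSPN was the lowest of the 51 genes at 400K, where their median was 0.759. The probe sets disagreed, with log2 ratios of 0.53, −0.01, −0.82 and −0.17 at 100K and −0.30, −0.59, −1.12 and −1.90 at 400K. Those with slopes of −0.24 and −0.70 passed by themselves (limma adjusted p 0.0124 and 0.00665). Those at −0.18 and −0.21 did not (limma adjusted p 0.168 and 0.252). WDHD1, which links the helicase to polymerase alpha, fell to 0.481 (slope −0.27 ± 0.05, adjusted p 0.0119; 0.0509 without the 800K array). TIMELESS stood at 0.995, 1.07, 0.897, 0.749 and 0.656 and did not pass (slope −0.14 ± 0.04, adjusted p 0.0673).

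The chromatin factors that follow the fork all fell. UHRF1, which reads hemimethylated DNA and brings in the maintenance methyltransferase, stood at 0.797, 0.805, 0.594, 0.371 and 0.293, with a slope of −0.42 ± 0.07 (adjusted p 0.0116). CHAF1A and CHAF1B are subunits of CAF-1, which deposits histones on new DNA. CHAF1B stood at 1.05, 1.01, 0.818, 0.466 and 0.409, with a slope of −0.33 ± 0.09 (adjusted p 0.0415). CHAF1A stood at 0.948, 0.929, 0.733, 0.528 and 0.420, with a slope of −0.30 ± 0.06 (adjusted p 0.0196), against −0.03 (adjusted p 0.232) on the probe set that remains without suffixes _x_at and _s_at. UHRF1 was already low at 100K, while both CAF-1 genes stayed near 1 up to 200K. Of the 3, 1 passed without the 100K, 600K or 800K array.

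Subunits of the same complex were then compared directly. For each of 63 pairs within 12 complexes, the slope of the difference of the log2 values was tested two-sided with an exact permutation test, in which the 6 densities took all 720 orders; it cannot give a p below 0.00139, and p-values were adjusted over the 63 pairs. Of these, 11 passed, and 26 had an unadjusted p under 0.05. Among the 15 pairs of MCM2-7 subunits 0 passed. The largest difference between their slopes was 0.08 log2 units per doubling, and the smallest adjusted p of this exact test was 0.0984. A missed threshold does not show that the subunits change alike.

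Of the pairs that passed, RFC1 and RFC3 had the widest slope difference. The log2 ratio of RFC1 minus that of RFC3 was 0.34, 0.47, 0.64, 0.98 and 1.47 from 100K to 800K, a slope difference of 0.31 (exact permutation adjusted p 0.0437). RFC1 minus RFC5 reached 1.08 at 800K, with a slope difference of 0.28 (exact permutation adjusted p 0.0477). Both gaps were wider at 600K and 800K than on any sparser array. The probe sets of RFC3 had slopes of −0.53, −0.27 and −0.26, so its gap to RFC1 is smaller without the first. At 100K most of each gap came from 1 probe set, at −1.23 log2 units for RFC3 and −0.71 for RFC5. In the origin recognition complex, ORC4 and ORC3 parted from ORC6, whose single probe set has the suffix _x_at. ORC4 minus ORC6 rose from 0.34 at 100K to 1.24 at 800K (slope difference 0.29, exact permutation adjusted p 0.0437), and ORC3 minus ORC6 from 0.35 to 1.04 (slope difference 0.25, same adjusted p). ORC1 minus ORC4 did not pass (slope difference −0.34, exact permutation adjusted p 0.0669).

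TIMELESS and TIPIN, which bind each other in the fork protection complex, also separated. Their difference was −0.01, 0.39, 0.65, 0.93 and 1.04 from 100K to 800K, a slope difference of 0.28 (exact permutation adjusted p 0.0437). The pair was level at 100K and grew apart at each later step. TIMELESS is the mean of a probe set that fell (slope −0.27, −1.10 log2 units at 800K) and one that did not pass (slope −0.02, −0.11 at 800K), and TIPIN stood at −1.65, so the gap is smaller on the first alone. All 3 pairs of polymerase delta passed: POLD1 lay below POLD2 by a slope difference of −0.23 and below POLD3 by −0.16, and POLD2 lay above POLD3 by 0.07. POLD2 minus POLD3 had the smallest p the design allows. POLD3 is the mean of a probe set with a slope of −0.36, steeper than the −0.30 of POLD1, and one at 0.08. The direction of POLD3 against POLD1, and also against POLD2 (slope −0.07), therefore turns with the probe set. The remaining calls were GINS1 against GINS2 (−0.21), GINS2 against GINS3 (0.11) and RFC3 against RFC4 (−0.11). These too depend on the probe set: the slopes of the 3 for GINS2 were −0.48, −0.19 and −0.02, and the first is steeper than GINS1 and GINS3. Of the 3 for RFC3, those at −0.27 and −0.26 lie close to RFC4 (−0.24), and the third is at −0.53. POLE minus POLE2 had the largest slope difference of all the pairs, 0.38, but did not pass (exact permutation adjusted p 0.0602). With 5 arrays, leaving out any single array, 0 pairs passed. Fewer orders of 5 arrays raise the smallest possible p, so this count cannot tell whether a call rested on 1 array.

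**Figure D4:**
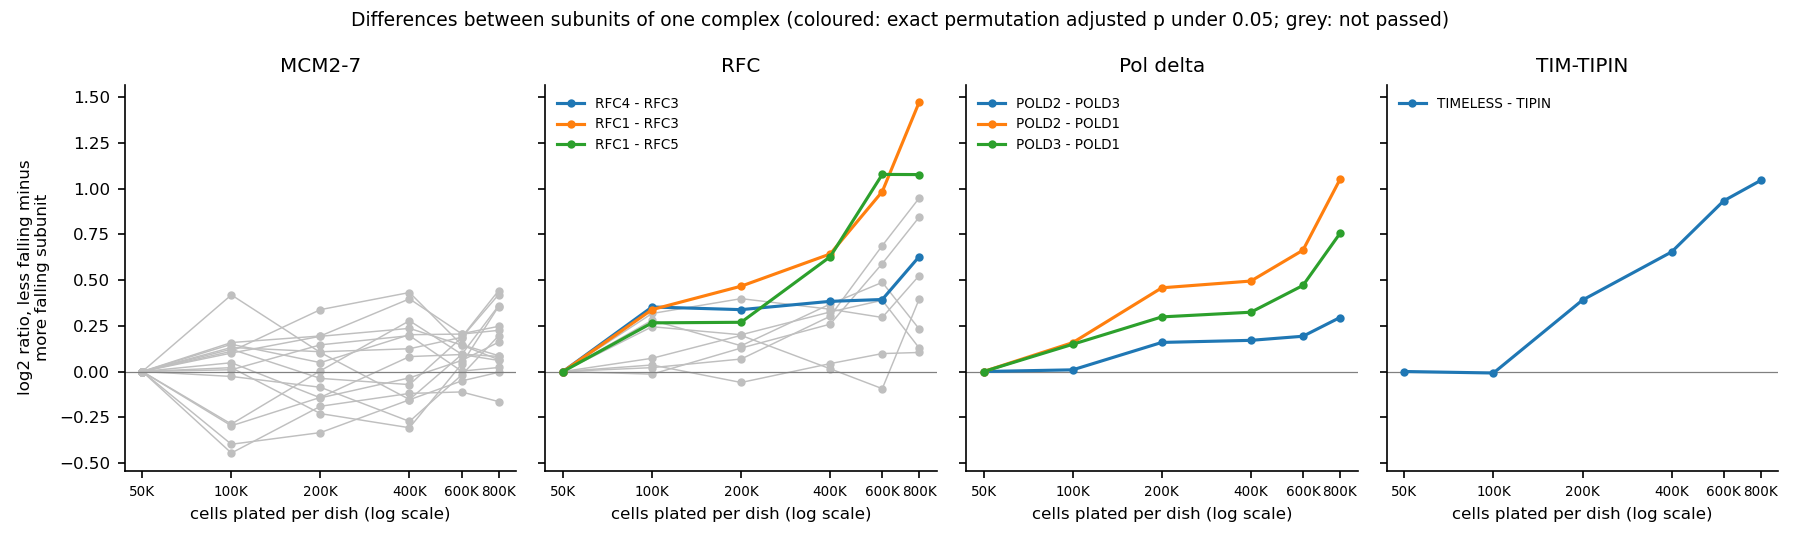
Difference of log2 ratios between subunits of the same complex (vertical axis, the less falling minus the more falling gene) against cells plated (horizontal axis, log scale), 1 array per point. Coloured pairs passed the exact permutation test at an adjusted p under 0.05 and grey pairs did not: 0 of 15 in MCM2-7, 3 of 10 in RFC, 3 of 3 in polymerase delta and 1 of 1 for TIMELESS and TIPIN.

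A gene's mean can hide probe sets that disagree. Of the 95 probe sets, 58 fell in limma's test over all 41091 probe sets with a single symbol, of which 10.1% fell, and 0 rose. Negative slopes were found for 88, against 41.9% of all, and the other 7 had slopes of 0.00 to 0.08 that did not pass. Those 7 belonged to MCM4, ORC5, GINS4, DSCC1, POLA2, POLD3 and RPA1. DSCC1 had slopes of −0.36 ± 0.06 and 0.01 ± 0.03, and POLD3 of −0.36 ± 0.06 and 0.08 ± 0.04, so the mean of each lies between a clear fall and no call. MCM4 had 4 probe sets between −0.40 and −0.27, all called, and 1 at 0.00. GINS4 spread from −0.53 to 0.00, the widest of the genes, and CLSPN from −0.70 to −0.18. POLA2 had −0.36, −0.09 and 0.01, ORC5 had −0.15, −0.13 and 0.01, and RPA1 had −0.15, −0.19 and 0.05. Of the 14 genes that did not pass by their mean, 4 had a probe set that fell: ORC5, GINS2, RPA1 and TIMELESS. The steepest of GINS2 was −0.48 ± 0.10, and that of TIMELESS −0.27 ± 0.05.

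**Figure D5:**
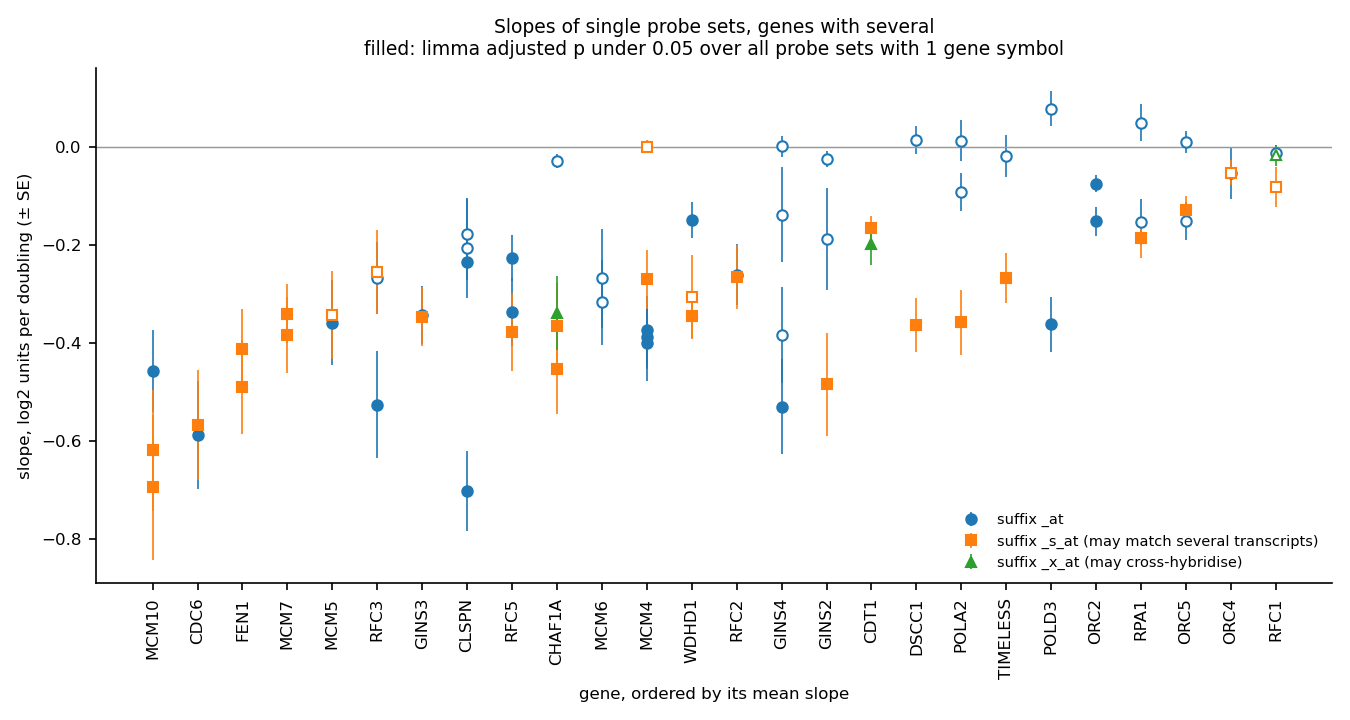
Slope of each probe set in log2 units per doubling (vertical axis, ± SE over 6 arrays) for the 26 genes with several, ordered by the gene's mean slope; the marker gives the suffix of the identifier, and filled markers passed limma's test. CDC6, FEN1, MCM7 and GINS3 have probe sets that lie close together and all passed, while DSCC1, POLD3 and GINS4 have probe sets near 0 beside steep ones.

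Genes that prepare S phase also fell. Of 16 measured genes for S-phase entry and nucleotide supply, 15 fell and 0 rose (median slope −0.29), beside the 12.4% of all genes that fell. CCNE2, a cyclin that drives entry into S phase, stood at 0.885, 0.764, 0.406, 0.184 and 0.172 from 100K to 800K, with a slope of −0.68 ± 0.11 (adjusted p 0.00901). CDC25A, the phosphatase that activates the cyclin's kinase, had a slope of −0.63 ± 0.09 (adjusted p 0.00726) and ended at 0.208. RRM2, the regulated subunit of ribonucleotide reductase, ended at 0.161 (slope −0.61 ± 0.11, adjusted p 0.0124), and E2F8, a repressor of the E2F family, at 0.236 (slope −0.52 ± 0.09, adjusted p 0.0102). These 4 were lower at 400K than at any sparser density. E2F2 did not pass.

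Other licensing and fork factors were split. Of 28 measured, 13 fell, 0 rose and 15 did not pass (median slope −0.17), beside the 12.4% of all genes that fell. The steepest slopes among those that fell were in ASF1B, a histone chaperone, with a ratio of 0.252 at 800K (slope −0.45 ± 0.11, adjusted p 0.0361), and in DONSON, which helps assemble the helicase, with 0.434 (slope −0.34 ± 0.04, adjusted p 0.00446). DNMT1, the maintenance methyltransferase that UHRF1 brings to new DNA, ended at 0.373 (slope −0.33 ± 0.06, adjusted p 0.0158), and RNASEH2A, which removes RNA from DNA, at 0.496 (slope −0.27 ± 0.05, adjusted p 0.0157). POLD4, the smallest subunit of polymerase delta, ended at 1.60 and did not pass (slope 0.12 ± 0.05, adjusted p 0.132). Of the 28, 7 fell without the 100K array, 4 without 600K and 6 without 800K. LRWD1 was not analysed here.

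Polymerases that serve repair and bypass of damage were mostly without a call. Of 12, 2 fell, 1 rose and 9 did not pass, and the median slope was 0.00. Over all genes 12.4% fell and 8.93% rose, so these counts were near those of genes in general. POLQ, the polymerase of microhomology-mediated end joining, stood at 0.779, 0.755, 0.575, 0.355 and 0.259 (slope −0.45 ± 0.07, adjusted p 0.0108). PRIMPOL, a primase that restarts stalled forks, ended at 0.658 (slope −0.15 ± 0.03, adjusted p 0.0134). POLL, a gap-filling polymerase, rose to 1.28 (slope 0.10 ± 0.02, adjusted p 0.0264), a call lost without the 50K, 100K, 600K or 800K array (adjusted p 0.0717, 0.0683, 0.0631 and 0.0941). Whether these lists differ from the fork genes was not tested.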

How the data were processed

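Total RNA of 6 MCF10A cultures (200 ng) was biotin-labelled for the arrays, per the labels' protocols. The authors deposited linear ratios, one for each of 54675 probe sets: all values of the 50K array equal 1 within 1e-06. RMA is named, with no version, in the submitters' processing notes; how the ratios were then formed is not stated there. Signal over background is unknown. Whether arrays stand for 1 dish or several is not given, so p-values measure only the spread of these arrays.

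The log2 of each ratio was used with no filter or pseudocount. Of the probe sets, 62 were controls, the platform annotation gave 1 gene symbol for 41091, several for 1801 and none for 11783; 41037 of the 41091 matched RefSeq. A gene was the mean of its probe sets. limma 3.58.1 in R 4.3.3 (lmFit, eBayes) fitted the slope on log2 of the cells plated, two-sided, with Benjamini-Hochberg adjustment over 19775 genes, called at 0.05. For curvature, the quadratic coefficient of an orthogonal polynomial was tested. Dividing by the 50K value leaves slopes unchanged. Members, lists and motifs were chosen with earlier results of these data known. Named genes were all members, with values on every array for the 2 steepest and the shallowest of each role and those whose probe sets differ in sign; of each further list the 4 steepest past the threshold and any that moved against it; and the 6 widest pairs past the threshold. MCM2, MCM6, the other subunits' end values, POLD4 and the remaining pairs were added once values were known. The procedures were tested on simulated data.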

Additional observations from a re-analysis of the deposited data

How the results depend on the processing

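The slopes of the members kept their sign under each alternative in which they could be fitted, except for DSCC1, 0.0136 without probe sets ending in _x_at or _s_at (limma adjusted p 0.853), and RPA3, whose slopes ran from −0.0664 to 0.0319 with an array left out, above 0 without 100K (adjusted p 0.810) or 800K (adjusted p 0.624). The count of members that fell, 37, was 17 for the 3 lowest against the 3 highest densities and 12 to 39 when an array was left out. The cell number itself gave 47, its rank 45, and leaving out both kinds of probe set 25 of 41 members. Leaving out _x_at alone, chosen after seeing the data as was the joint F test (46), gave 36 of 50. Over all genes, 2455 fell: 1507 of 17098 without those probe sets, 1351 for 3 against 3, and 1362 to 2282 with an array left out. The 1765 that rose were 1157, 908 and 1026 to 1627. Of the genes in the 3 further lists, 30 fell and 1 rose: 18 and 0 of 45 without those probe sets, 17 and 0 for 3 against 3, 2 rising with the cell number itself, and 17 to 30 falling and 0 to 1 rising with an array left out. Curvature had 0 calls throughout. The 11 pairs became 22 with the cell number itself and 0 without any single array, where fewer orders of 5 arrays raise the smallest p. Other causes were not tested. No paired analysis was possible because each density has 1 array. Changes at low signal cannot be judged, since signal over background is unknown.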
